A study of Sus scrofa with 21 samples.

Results

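The MX, IFIT and other antiviral effectors examined here are 10 genes: MX1, MX2, IFIT1, IFIT2, IFIT3, IFIT5, RSAD2, IFI44, IFI44L and BST2. They were chosen because type I interferon is known to induce them, and a probe was assigned to a gene when the gene name or description in the scanner files named it. This gave 26 probes, and the 10 genes were among 11729 genes named on the array. RSAD2 was found under its older array name IRG6.

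Blood was taken at 60 days of age from 10 DD pigs and 11 LW pigs, and total RNA was hybridized to a one-colour Agilent pig array. DD pigs are SLAdd minipigs, an inbred French line homozygous at the SLA locus, which is the major histocompatibility complex of the pig. LW pigs are Large White pigs and were the controls. All received a standard diet ad libitum, and the labels name no infection and no interferon treatment. The DD pigs came from 5 litters and the LW pigs from 6, every pig but LW_02 had a litter mate in the data, and the arrays lay on 3 chips that each held both breeds. Each breed is represented by 1 herd on the same experimental farm, so breed and herd cannot be told apart.

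Interferons are secreted when cells sense viral nucleic acid. They bind receptors on the same and on neighbouring cells, and kinases of the JAK family then activate transcription factors that switch on interferon-stimulated genes. The effectors among these genes act on different steps of infection. MX proteins are GTPases that trap viral components, IFIT proteins bind viral RNA or regulate translation, RSAD2 (viperin) makes a chain-terminating nucleotide, BST2 (tetherin) holds budding virions at the cell surface, and IFI44 and IFI44L are interferon-induced proteins with a less settled role.

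The genes lie in a few clusters of the Sscrofa11.1 assembly. MX2 (chr13:204798633-204821612) and MX1 (chr13:204843049-204868927) are neighbours with 1 other RefSeq gene, LOC102159603, between them. IFIT2 (chr14:101193421-101204292), IFIT3 (chr14:101214730-101225169), IFIT1 (chr14:101237403-101249486) and IFIT5 (chr14:101254818-101266105, named LOC100151816 in RefSeq) follow each other within 72685 bases. IFI44 (chr6:134634679-134649857) is next to IFI44L (chr6:134660230-134679212). RSAD2 (chr3:128880853-128897809) and BST2 (chr2:60305306-60308295) stand alone.

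MX1 had 7 probes, IFIT1, IFIT2 and IFIT3 had 3 each, MX2, RSAD2, IFI44 and BST2 had 2 each, and IFIT5 and IFI44L had 1. Each probe is 60 bases long. No probe shared a run of more than 10 bases with a probe of another of these genes, on either strand. Probes were compared with each other and not with transcripts. Cross-hybridization of a probe to the transcript of another gene was therefore not tested. Of the MX1 probes, 3 overlapped each other by 45 to 57 bases and are not independent measurements. The probes printed here, 5′ to 3′ as designed, are a selection from genes whose probes are compared further on, and each has at least 1 reading frame free of stop codons over its length. The strand of the transcript that a probe matches was not checked. They are shown in lower case with no part marked. The first 2 are the MX1 probe at position 1934 and the IFIT1 probe at position 1425 of the transcript as listed in the scanner files, from which distances to a probe nearer the transcript end were taken. The next pair lies in the IFIT3 transcript at 1131 and 1274. The last 4 are the pairs of BST2 and IFI44 probes, whose breed differences were unequal.
MX1, A_72_P487406: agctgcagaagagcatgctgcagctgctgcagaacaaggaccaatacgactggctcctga
IFIT1, A_72_P489826: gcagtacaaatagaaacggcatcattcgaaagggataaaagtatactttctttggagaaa
IFIT3, A_72_P543787: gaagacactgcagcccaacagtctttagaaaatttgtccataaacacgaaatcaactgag
IFIT3, A_72_P489821: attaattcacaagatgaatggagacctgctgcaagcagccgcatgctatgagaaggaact
BST2, A_72_P276294: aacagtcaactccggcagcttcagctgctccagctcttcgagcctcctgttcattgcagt
BST2, O373: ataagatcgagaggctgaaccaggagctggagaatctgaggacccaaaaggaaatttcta
IFI44, O1400: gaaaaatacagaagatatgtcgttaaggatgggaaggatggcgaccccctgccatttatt
IFI44, A_72_P207667: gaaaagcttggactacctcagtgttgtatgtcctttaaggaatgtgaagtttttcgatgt

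Levels are log2 intensities of the deposited matrix, averaged over the probes of a gene. Differences are DD minus LW on the log2 scale from a limma model with a term for the chip in which litter mates were allowed to be correlated, and adjusted p-values are Benjamini-Hochberg adjusted over 10027 genes. The DD arrays were dimmer than the LW arrays. Brightness, the 75th percentile of the signal on the log2 scale, averaged 7.53 ± 0.542 (SD, n = 10) for the DD breed against 8.22 ± 0.376 (SD, n = 11) for the LW breed, and between 44.7% and 63.8% of probes exceeded background clearly on each array. Of the 26 probes of the effectors, 25 were well above background on all 21 arrays.

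All 10 effectors had a higher mean in DD blood, and 6 of them passed the threshold of 0.05: MX1, MX2, IFIT1, IFIT5, IFI44 and BST2. Over all genes tested, 11.2% were higher in DD pigs at this threshold and 23.6% passed it in either direction. None of the 10 was lower, against 12.4% of all genes. The median difference of the effectors was 0.74, beside a median of −0.06 over all genes. Scaling each array to its 75th percentile shifted the balance of all genes from 1126 higher and 1245 lower to 1421 higher and 783 lower, and cyclic loess shifted it to 1396 higher and 723 lower. These settings moved the median of all genes to 0.03 and 0.01, and under both the difference of every effector stayed positive. In whole blood, a larger number of expressing cells and more RNA per cell cannot be told apart.

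MX1 had the widest breed difference of the 10 genes. Its level ran from 12.09 to 15.14 with a median of 12.91 in DD pigs, and from 9.57 to 12.55 with a median of 12.02 in LW pigs. The breeds overlapped little, with 8 of 10 DD pigs above every LW pig. The difference was 1.47 (SE 0.365, limma adjusted p = 0.0108), which is a fold of 2.77 with a 95% confidence interval from 1.64 to 4.69. All 7 probes passed the threshold, with differences between 1.36 and 1.62.

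MX2, the neighbour of MX1 on chromosome 13, differed by nearly as much. DD pigs ranged from 8.71 to 12.29 with a median of 9.79, and LW pigs from 7.55 to 9.52 with a median of 8.62. Again 8 of 10 DD pigs exceeded all LW pigs. The difference was 1.41 (SE 0.306, limma adjusted p = 0.00469), or 2.66-fold with an interval from 1.71 to 4.14, and its 2 probes gave 1.52 and 1.31.

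The 4 IFIT genes sit side by side but did not move to the same extent. IFIT1 had the smallest adjusted p of the effectors. Its level was between 12.60 and 13.94 with a median of 13.31 in DD pigs and between 12.21 and 13.40 with a median of 12.50 in LW pigs. The spread was narrow in both breeds, and 7 of 11 LW pigs lay below every DD pig. The difference was 0.82 (SE 0.151, limma adjusted p = 0.00144), a fold of 1.76, and all 3 probes passed.

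IFIT5 lies next to IFIT1, at the end of the cluster. Its level ranged from 6.30 to 9.65 with a median of 8.02 in DD pigs. In LW pigs it ranged from 6.13 to 8.16 with a median of 6.82. The ranges overlapped over most of the LW span, and 4 of 10 DD pigs were above all LW pigs. Its 1 probe gave a difference of 1.08 (SE 0.283, limma adjusted p = 0.0145), or 2.11-fold.

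IFIT2 and IFIT3 did not pass the threshold. IFIT2 ran from 10.94 to 13.31 around a median of 11.74 in DD pigs and from 10.51 to 11.77 around 11.53 in LW pigs, and 5 of 10 DD pigs exceeded every LW pig. It had a difference of 0.47 (SE 0.227, limma adjusted p = 0.128). The 95% confidence interval of its fold, 1.00 to 1.92, reaches the values seen for IFIT1. IFIT3 had the same median of 10.36 in both breeds, within 9.64 to 12.44 for DD pigs and 9.04 to 10.72 for LW pigs, and 3 DD pigs of 10 exceeded the LW range. It had a difference of 0.54 (SE 0.263, limma adjusted p = 0.130). The difference between IFIT1 and its neighbours was not tested.

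RSAD2 also missed the threshold, although its difference was about that of IFIT1. Its level ran from 8.21 to 11.58 with a median of 9.36 in DD pigs and from 7.72 to 9.95 with a median of 8.74 in LW pigs. Of the DD pigs, 1 was above every LW pig. The difference was 0.83 (SE 0.316, limma adjusted p = 0.0600), with a fold interval from 1.13 to 2.80.

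IFI44 and IFI44L, also neighbours, were both higher on average. IFI44 ranged from 7.72 to 9.11 with a median of 8.18 in DD pigs and from 7.24 to 8.24 with a median of 7.73 in LW pigs. Its difference was 0.51 (SE 0.132, limma adjusted p = 0.0140), a fold of 1.42. IFI44L spanned 8.34 to 10.60 around a median of 9.03 in DD pigs and 7.55 to 9.58 around 9.05 in LW pigs. Its difference of 0.30 (SE 0.197, limma adjusted p = 0.268) did not pass the threshold. The interval of its fold, 0.92 to 1.63, includes the value of IFI44.

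BST2 had a level between 5.70 and 7.71 with a median of 6.34 in DD pigs and between 5.00 and 6.92 with a median of 5.82 in LW pigs. These levels are averages of 2 unlike probes. The difference was 0.66 (SE 0.195, limma adjusted p = 0.0232), or 1.58-fold.

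**Figure D1:**
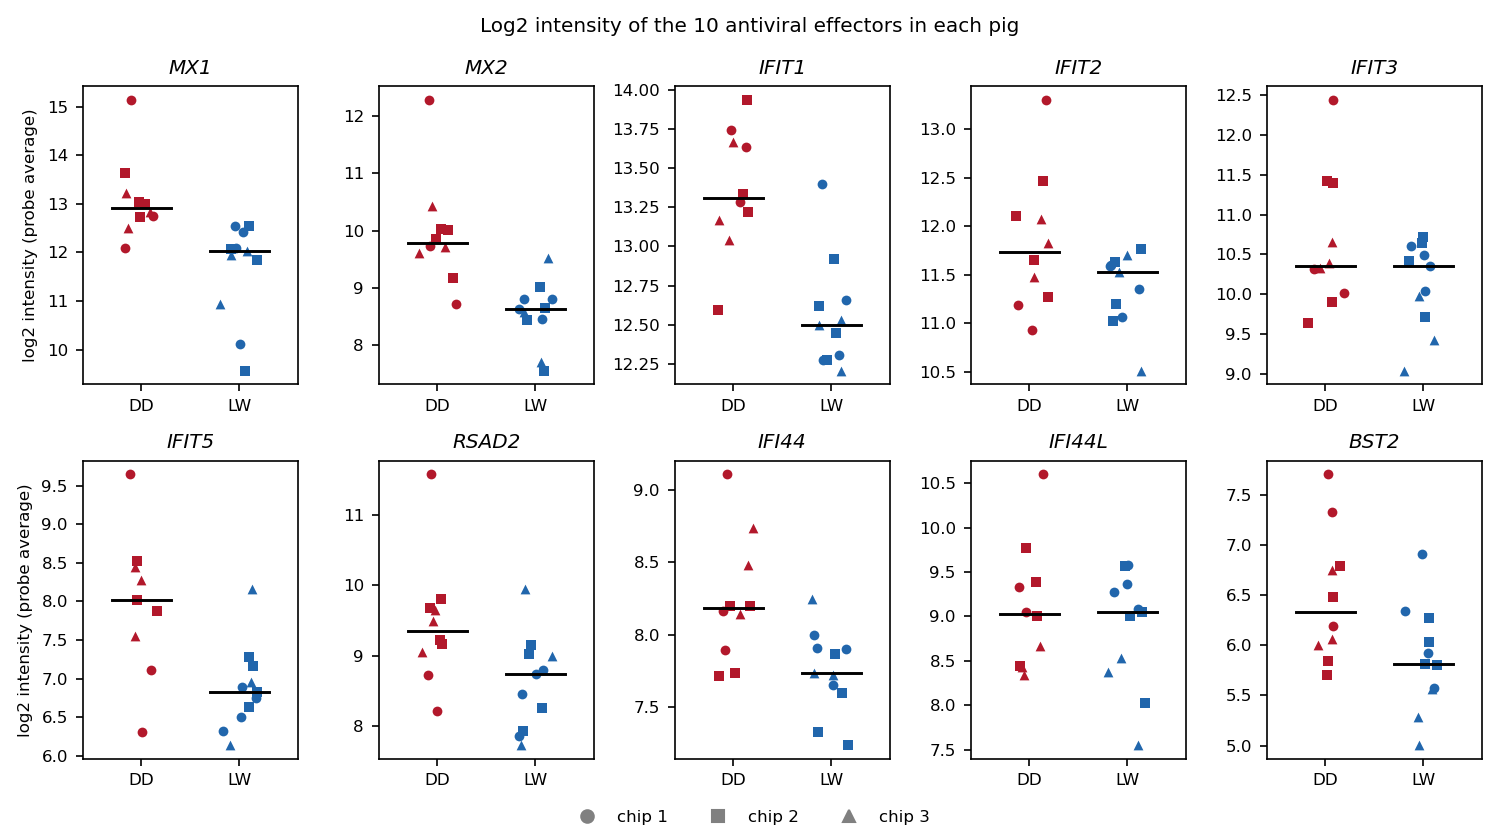
Log2 intensity, averaged over the probes of each gene, in each DD pig (red) and LW pig (blue), with 1 panel per gene, symbols for the chip and a black line at the median of the breed. For MX1 and MX2, 8 of 10 DD pigs lie above all LW pigs, and the highest point of 9 panels is the pig DD_06.

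At the level of single probes, 25 of the 26 differences were positive and 15 passed the threshold, against 11% of the 45228 probes tested. BST2 gave the most unequal pair. Probe A_72_P276294 was well above background on all 21 arrays and differed by 1.38 (SE 0.283, limma adjusted p = 0.00299 over the probes), a larger change than the gene average. Probe O373, which the array annotates through a mouse transcript, was well above background on 1 DD and 1 LW array and gave −0.07 (SE 0.230, limma adjusted p = 0.856). The gene average of BST2 thus combines a probe with signal and a probe near background.

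The breed differences of the IFI44 probes were closer to each other. O1400 differed by 0.62 (SE 0.113, limma adjusted p = 0.00126) and A_72_P207667 by 0.40 (SE 0.202, limma adjusted p = 0.158). Their confidence intervals overlapped, but O1400 alone passed the threshold. The probes did not rank the pigs alike. DD_06 was the highest pig on A_72_P207667, at 8.35, whereas on O1400 DD_21 was highest at 10.53 and DD_06 was at 9.86.

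Among the IFIT3 probes, A_72_P489821 had a far wider spread between pigs than the others, with an SD of 1.47 in DD pigs and 1.18 in LW pigs. Its neighbour A_72_P543787 had SDs of 0.775 and 0.472. The 3 differences were nonetheless alike, at 0.50, 0.53 and 0.60.

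**Figure D2:**
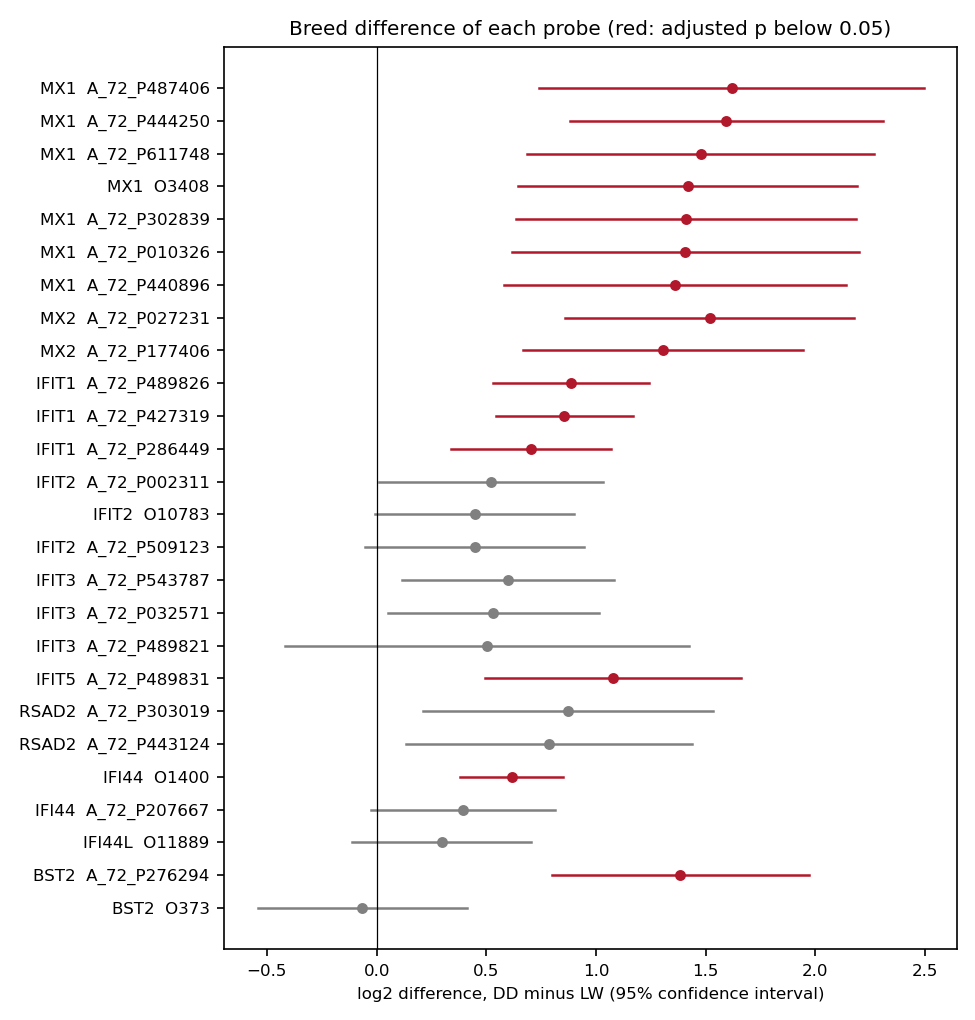
Log2 difference, DD minus LW, of each of the 26 probes with its 95% confidence interval, grouped by gene. Probes in red had an adjusted p below 0.05 over all 45228 probes. All 7 MX1 probes lie between 1.36 and 1.62, and BST2 probe O373 is the 1 probe below 0.

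The spread of IFIT3 probe A_72_P489821 came with a pattern shared by MX1 and IFIT1. The log2 distance between MX1 probe A_72_P440896 (position 2399) and probe A_72_P487406 (position 1934) was 4.12 to 7.21 over the arrays, and that between IFIT1 probes A_72_P286449 (position 1847) and A_72_P489826 (position 1425) was 1.57 to 3.13. The same 6 arrays had the widest distances for both genes: DD_13, DD_16, LW_15, LW_18, LW_22 and LW_24. On these arrays the signal of the probe nearer the start of the transcript was low relative to the probe nearer its end. They lay on chips 2 and 3, and over all arrays the median IFIT1 distance of chips 1, 2 and 3 was 1.73, 1.93 and 2.70.

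Without these 6 arrays, a setting chosen after seeing the data, 8 DD and 7 LW pigs remained. All 3 LW arrays of chip 3 and none of its 3 DD arrays were among the 6, so that chip 3 no longer held both breeds and its DD pigs gave no information on breed in a model with a chip term. This setting therefore overlaps with leaving out chip 3. The median difference of the effectors was then 0.81 and all 10 differences stayed positive, but none passed the threshold, and 0.459% of all genes were called higher. MX1 was at 1.33 (limma adjusted p = 0.287) and IFIT1 at 0.82 (limma adjusted p = 0.0787). The part of RNA quality in these distances was not tested.

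**Figure D3:**
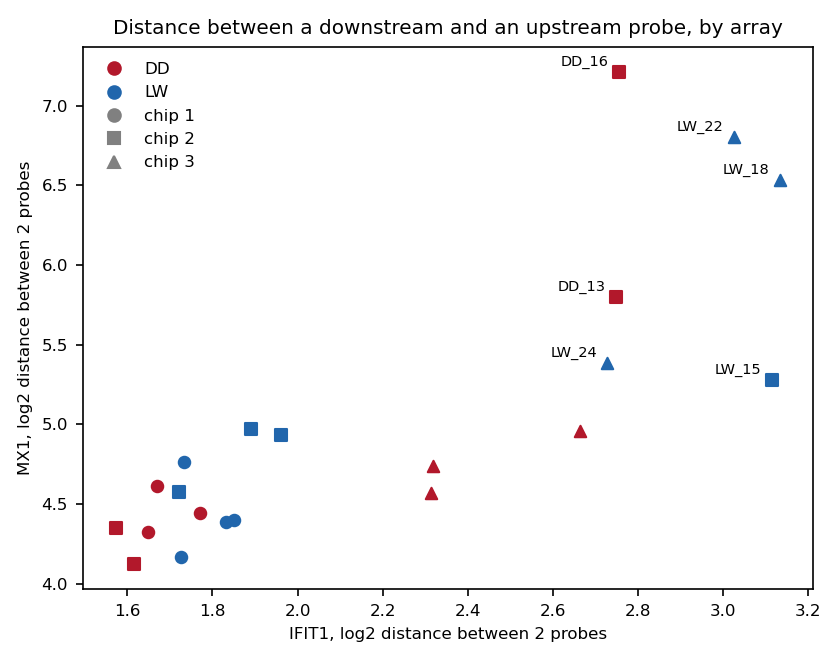
Log2 distance between a probe nearer the end and a probe nearer the start of the transcript, for IFIT1 (horizontal axis) and MX1 (vertical axis), with 1 point per array, colour for the breed and symbol for the chip. The 6 labelled arrays, 2 DD and 4 LW, have the widest distances for both genes.

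The breed difference was positive on each of the 3 chips for all 10 effectors. It measured 1.53, 1.59 and 1.21 on chips 1, 2 and 3 for MX1, and 1.58, 1.35 and 1.32 for MX2. For IFIT5 it was 1.07, 1.14 and 1.01, and for IFIT1 0.89, 0.71 and 0.88. BST2 and IFIT3 varied most, at 0.89, 0.22 and 0.99 and at 0.55, 0.21 and 0.98. On chip 3 all 3 LW and 0 of 3 DD arrays were among the 6 arrays with the widest probe distances. Breed and membership of these 6 cannot be told apart on that chip. The distance itself was graded and was raised in both breeds there. For IFIT1 it was 2.31, 2.32 and 2.66 in DD_19, DD_21 and DD_23. In LW_24, LW_22 and LW_18 it was 2.73, 3.02 and 3.13, and the widest on chip 1 was 1.85 in LW_04. The interaction of breed and chip gave limma adjusted p-values from 0.512 for BST2 to 0.994 for IFIT5. Over all genes 0 of 10027 passed this interaction test in limma, while 1545 had an unadjusted p below 0.05. The median over all genes was −0.007, −0.06 and −0.08 on the 3 chips.

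Without chip 3, 15 pigs remained and the differences of MX1 and MX2 were 1.46 and 1.44, but none of the 10 effectors passed the threshold, and the share of all genes called higher fell to 0.469%. With array brightness as a further covariate, the MX1 difference became 2.03 (limma adjusted p = 0.0220), MX2 1.96 (limma adjusted p = 0.00564), RSAD2 1.30 and IFI44L 0.60. IFIT1 was the 1 effector with a smaller difference under this covariate, at 0.62 (limma adjusted p = 0.102). The 8 effectors other than MX1 and MX2 did not pass, and 1.07% of all genes were called higher.

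**Figure D4:**
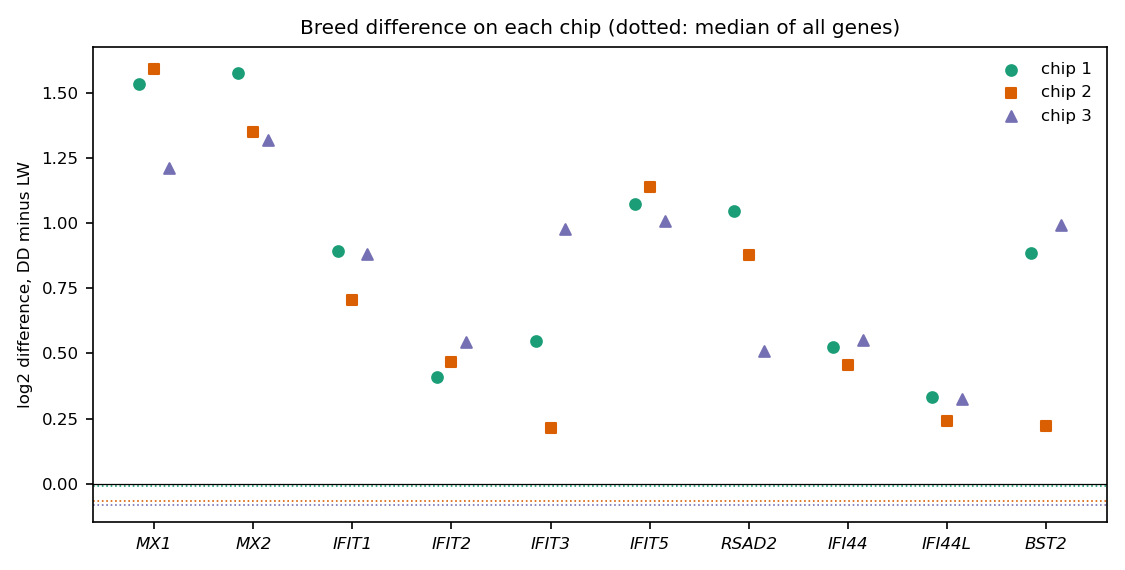
Log2 difference between the breed means, DD minus LW, of each effector on each chip, with the median over all genes on that chip as a dotted line. Every point is above 0, and the points of BST2 and IFIT3 are spread most widely.

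The pig DD_06 had the highest level of the 21 pigs for 9 of the 10 effectors after chip correction, IFIT1 being the exception, where DD_16 was highest. Its MX1 level of 15.14 was 1.52 above the next DD pig, its MX2 level 1.86 above, and its RSAD2 level 1.77 above. Averaged over the 10 genes, DD_06 deviated by 1.79 from the mean of all pigs, whereas its litter mate DD_11 deviated by 0.68. The lowest DD pig was DD_01 at −0.48, and its litter mate DD_10 stood at 0.49. Without DD_06 the 6 calls remained 6 in number, and the median difference of the effectors was 0.54 in place of 0.74. The differences of IFI44L, IFIT2, IFIT3 and RSAD2 moved by the largest factors, from 0.30 to 0.15, from 0.47 to 0.27, from 0.54 to 0.32 and from 0.83 to 0.52, and none of these 4 genes passed the threshold with or without DD_06. The array of DD_06 was also the brightest of the DD arrays, at 8.49.

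Among LW pigs, LW_24, LW_15 and LW_04 had the lowest averages, at −0.95, −0.93 and −0.79. The arrays of LW_24 and LW_15, but not that of LW_04, were among the 6 with the widest distance between probes. LW_18 and LW_22, also among those 6, averaged −0.36 and 0.12. LW_24 was the lowest of all 21 pigs for 5 of the genes. LW_04 and LW_15 were low in MX1 in particular. After chip correction their MX1 levels were 2.15 and 2.44 below the LW median, and the next lowest LW pig was 1.01 below it. In the deposited values, without chip correction, all 7 MX1 probes were below the LW median in both pigs, by 1.34 to 2.42 in LW_04 and by 1.81 to 2.72 in LW_15. For MX2, again after chip correction, the same pigs were 0.34 and 0.89 below the LW median. Their litter mates, LW_09 and LW_05, were at 0.53 and −0.17 relative to the chip-corrected LW median of MX1. Without LW_04 and LW_15, which were chosen after seeing their values, the MX1 difference was 1.04 (limma adjusted p = 0.0170) and the number of effectors past the threshold was again 6.

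**Figure D5:**
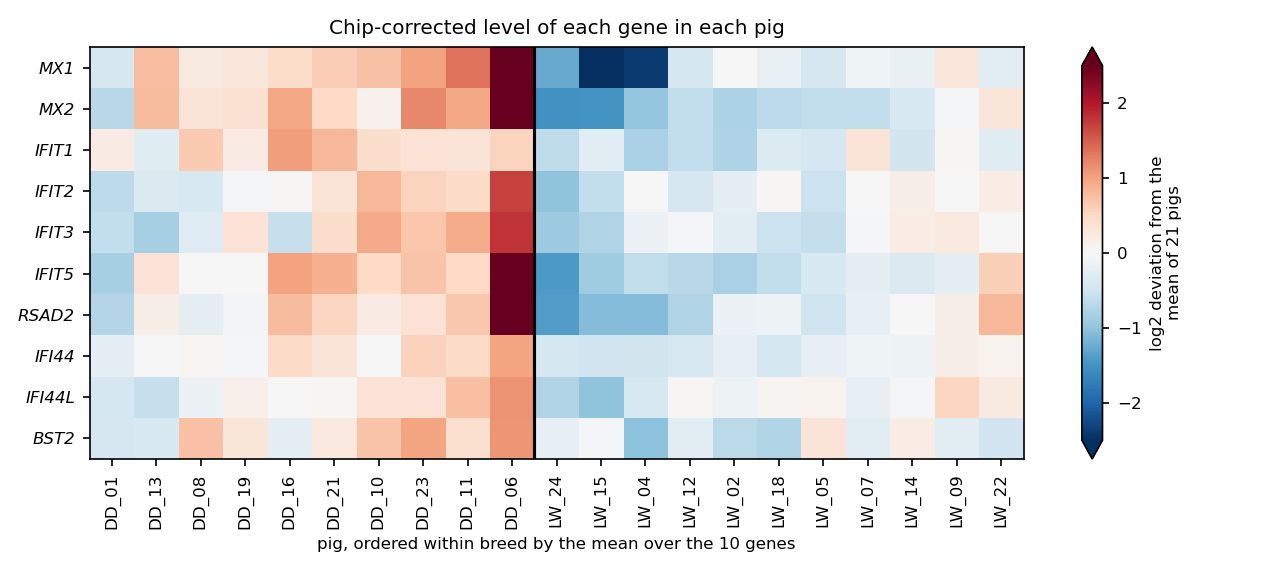
Chip-corrected log2 level of each effector (rows) in each pig (columns), as the deviation from the mean of the 21 pigs, with DD pigs left and LW pigs right of the line and colours capped at 2.5. DD_06 is high in all rows but less so in IFIT1, and LW_15 and LW_04 are low in MX1.

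Once breed and chip means were removed, the effectors varied together from pig to pig. Over the 45 pairs of genes the median Pearson r across 21 pigs was 0.67, from 0.20 to 0.94, and 29 pairs were above 0.5. These values share arrays and normalization and are a description. Without DD_06 the median r was 0.47 over 20 pigs. RSAD2 had the highest median r with the other effectors, at 0.80, and IFIT1 the lowest, at 0.26, followed by BST2 at 0.37. Without DD_06 the lowest was BST2 at 0.20, and IFIT1 stayed at 0.26. The BST2 average includes probe O373, which was near background, and the part of this probe in the BST2 correlations was not tested.

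The 5 other genes whose residual pattern was most like the mean of the effectors were EIF2AK2, ISG15, DDX58, LOC733579 and HERC5. EIF2AK2 encodes the kinase PKR, which halts translation on sensing double-stranded RNA, and had an r of 0.94 over 21 pigs. ISG15, a ubiquitin-like modifier, had an r of 0.94, and DDX58, which encodes the RNA sensor RIG-I, 0.91. LOC733579 and HERC5, the ligase that attaches ISG15, both had 0.91. Without DD_06 the r values were 0.89, 0.87, 0.81, 0.81 and 0.81 in the order EIF2AK2, ISG15, DDX58, LOC733579 and HERC5, and TMEM156 and ZNFX1 took the places of DDX58 and LOC733579 among the first 5. Likeness did not bring an equal breed difference. ISG15 differed by 0.88 (SE 0.259, limma adjusted p = 0.0227) and HERC5 by 0.75 (SE 0.216, limma adjusted p = 0.0216). EIF2AK2 differed by 0.33 (SE 0.163, limma adjusted p = 0.143), LOC733579 by 0.30 (SE 0.189, limma adjusted p = 0.244) and DDX58 by 0.76 (SE 0.280, limma adjusted p = 0.0524). Without LW_18, ISG15 was at 0.86 (limma adjusted p = 0.0624) and HERC5 at 0.76 (limma adjusted p = 0.0550). DDX58 passed without DD_01 (0.91), DD_06 (0.47) or LW_22 (0.89).

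The upstream genes of the interferon pathway were read against the same shares of all genes, 11.2% higher and 12.4% lower. Of 3 interferon genes that could be tested, 0 passed the threshold in either direction in limma, and none had an unadjusted p below 0.05. IFNA1 differed by −0.28, IFNG by −0.37 and IFN-DELTA-1 by −0.11. The IFNA1 probe was well above background on 0 DD and 2 LW arrays, and the probes of IFNG and IFN-DELTA-1 on 8 DD and 11 LW arrays each, so IFNA1 was not measurable in most pigs. Of 8 receptor and kinase genes, 0 passed in limma as well, and 3 had an unadjusted p below 0.05 (IFNAR2, IL10RB and JAK1). The values were −0.14 for IFNAR1, −0.22 for IFNAR2, 0.03 for IFNGR1, 0.32 for IFNGR2, −0.37 for IL10RB, −0.34 for JAK1, 0.04 for JAK2 and 0.11 for TYK2. IFNAR2 turned from −0.22 to 0.30 (limma adjusted p = 0.0383) under 75th-percentile scaling. Its 1 probe had means of 17.39 in DD and 17.62 in LW pigs, about as high as the erythroid marker HBB at 17.61 and 17.35. LW_14, LW_15 and LW_24 shared the same IFNAR2 value of 17.64. The IFNAR2 difference is therefore not an exact size.

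Of 7 transcription factors, 1 passed and was higher. IRF7, which amplifies the interferon response, had a difference of 0.57 (SE 0.144, limma adjusted p = 0.0113). STAT2 and IRF9, which act downstream of the type I interferon receptor, had differences of 0.26 and 0.14, neither past the threshold. IRF1, IRF3 and IRF5 had 0.06, 0.12 and 0.20. IRF1 turned negative without chip 1 or chip 3.

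Of 6 feedback inhibitors, 1 passed and was higher, ISG15, and of 12 sensors of RNA and DNA, 2 passed and were higher, ZBP1 at 0.60 and TLR8 at 0.41. Among 44 other interferon-stimulated genes tested, 12 were higher past the threshold and 0 lower, and 36 differences were positive and 8 negative, with a median difference of 0.36. Some genes belong to more than 1 of these lists. The 5 with the widest differences were TOR3A, OAS1, CXCL10, RTP4 and ISG20. OAS1, an enzyme of the RNase L pathway, differed by 1.88 (SE 0.611, limma adjusted p = 0.0329), and CXCL10, a chemokine for T cells, by 1.87 (SE 0.514, limma adjusted p = 0.0176). The OAS1 levels of LW_02 and LW_04 were 5.43 and 5.75, and those of the other 9 LW pigs ran from 8.92 to 11.68. Its difference was 3.85, 0.46 and 1.62 on chips 1, 2 and 3, and without chip 1, which held both pigs, it was 0.91 (limma adjusted p = 0.0987). OAS1 also missed the threshold without DD_08 (1.82), DD_21 (1.90), DD_23 (1.87) or LW_18 (1.89). For RTP4 the difference was 1.24 (SE 0.241, limma adjusted p = 0.00222) and for ISG20, a ribonuclease, 1.04 (SE 0.311, limma adjusted p = 0.0240). ISG20 missed the threshold without DD_21 (0.99) or LW_18 (1.04). The probe of TOR3A was well above background on 10 of 10 DD but 3 of 11 LW arrays, so its difference of 4.57 (SE 0.660, limma adjusted p = 0.000163) is not an exact size.

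Markers of blood cells were read beside these values and the shares of all genes, 11.2% higher and 12.4% lower. Of 7 T cell markers, 2 were lower in DD pigs, CD3D at −0.58 and CD3G at −0.64, and all 7 differences were negative. Of 8 B cell markers, 2 were higher, and of 8 erythroid markers, 3. Among 8 monocyte markers, 1 was higher and 2 were lower, and among 6 granulocyte markers and 8 cytotoxic and natural killer markers, 0 passed. Of 7 platelet markers, 1 was lower. Plasmacytoid dendritic cells are the main blood source of type I interferon, and 2 of 8 of their markers were higher, IRF7 and SCAMP5. IRF7 is also counted among the other interferon-stimulated genes, so it is not a separate reading of these cells. Of the 8 differences, 6 were positive and 2 negative, GZMB at −0.32 and TLR7 at −0.20. The unlogged levels of the genes of this list were summed per pig. The log2 of this sum was 14.17 to 15.09 in DD pigs and 14.17 to 14.80 in LW pigs. The same measure overlapped between the breeds in the other lists as well. For the erythroid list it was 18.11 to 19.17 in DD pigs and 17.75 to 19.21 in LW pigs. The part of cell composition in the differences of the effectors was not tested.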

How the data were processed

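Whole-blood RNA was labelled with Cy3 and hybridized with 1 array per pig, and spots were read with Agilent Feature Extraction 10.7.3.1, as the submitters' processing notes state. The scanner files give intensity values per the file headers, with background, processed signal and other flags for spots well above background or saturated. Of the non-control spots, 0 were saturated. The log2 matrix was deposited by the authors after normexp background correction, log2 scaling and quantile normalization of 21 arrays. The authors had processed more arrays and left out outliers, and saw a technical bias on chip 3. Of 60305 distinct probes, 23880 could be named by symbol, older symbol or accession through the RefSeq table. The 25% of probes with the lowest mean were removed, leaving 45228, and the rest were averaged per gene symbol. Sequences were copied from the scanner files.

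Breed was tested with limma 3.58.1 in R 4.3.3, with a chip term and litter mates of 1 sow as a block through duplicateCorrelation (consensus correlation −0.10). The consensus was negative, and the block raised the number of genes called. With no sow block 1794 genes passed in place of 2371, and 8.47% of all genes were higher. The number of effectors past the threshold was again 6. Group came from the labels, and sow and chip from the study's animal table. The number of arrays limits precision. Re-computed values correlated with the deposited ones across probes at 0.998 to 0.999. The fit was tested on simulated data with noise drawn independently for each gene and array. Correlation of litter mates and differences in array brightness were not simulated, so the simulation does not cover them. Alternatives were other background corrections and scalings, probe filters, a single probe per gene, averages per litter or no sow block, a model lacking the chip, single chips left out, brightness as covariate, another variance model and each pig left out.

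Named genes were the 10 effectors, the tested genes of the ligand, receptor and transcription factor lists, the 5 highest and 2 lowest other interferon-stimulated genes past the threshold (none was lower), and the 5 genes with the residual pattern most like the effectors. The values of 1 transcription factor are not reported here. The genes, lists and tests were chosen with earlier results of these data known. A level of a gene with several probes is an average, and log2 levels were not compared between genes.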

Additional observations from a re-analysis of the deposited data

Results flagged for a closer look

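The pig DD_06 stood apart from the other DD pigs in 3 of the 10 effectors. The gap between its level and the next DD pig, divided by the range of the 10 DD pigs, was 0.497 for MX1, 0.518 for MX2 and 0.526 for RSAD2, above the critical value of 0.466 for 10 animals. About 1 in 20 groups would pass by chance, and the effectors are not independent of each other. Groups of 11, such as the LW pigs, were not examined in this way. No difference between chips passed the interaction test for any of the 10 effectors.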

How the results depend on the processing

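Over 38 alternatives per effector, the difference of all 10 effectors kept its sign. Of the 380 values, 352 kept their side of the threshold, 23 lost a call and 5, all of RSAD2, gained one. The number of effectors past the threshold was 6 and became 0 without chip 3, 2 with array brightness as a covariate and 0 without the 6 arrays with the widest distance between probes. With each pig left out it ranged from 5 to 7, with BST2 lost without DD_23 or LW_18 and RSAD2 gained without DD_01 or LW_22. The number of other interferon-stimulated genes past the threshold was 12, and it was 1 without chip 3, 6 with brightness, 0 without the 6 arrays and 5 to 15 with each pig left out, the lowest without LW_18. Of all genes, 2371 passed, against 109 without chip 3, 110 without the 6 arrays, 241 with brightness, 673 with no chip term, 840 without LW_18, 1120 without DD_21, 1422 without LW_22, 1470 without DD_23 and 3795 without DD_06. The cause was not tested. Differences that changed sign were those of IFNAR2 (0.30 with scaling to the 75th percentile and 0.0321 with brightness), IFN-DELTA-1 (0.0244) and JAK1 (0.0245) with brightness, IFNGR1 (−0.0196 without chip 1 and −0.00337 without chip 2, and −0.0262 to 0.111 with each pig left out), JAK2 (−0.18 without chip 2, and −0.0459 to 0.0931 with each pig left out), IRF1 (−0.0832 without chip 1, −0.0953 without chip 3, −0.0204 without LW_04 and LW_15, and −0.0336 to 0.165 with each pig left out) and IFNAR1 (0.12 without the 6 arrays). Probe-level differences were fitted under the main setting alone. No paired analysis was possible because the pig numbers are not shared between the breeds.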
